A study of Mus musculus with 12 samples.

Results

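The genes of the hypoxia response and of glycolysis examined here were Bnip3, Ddit4, Pgk1, Ldha, Hk2, Vegfa, Egln3, Pdk1, Aldoa and P4ha1, 10 of the 13703 genes in the authors' deposited comparison table. They were chosen by their higher levels in anti-CD3 islets in that table, so the difference between the groups in these genes is described here and not tested. The series measured polyadenylated RNA, by RNA-seq, in pancreatic islets of wild-type female NOD/ShiLtJ mice, a strain in which T cells attack the insulin-producing beta cells. The 6 anti-CD3 libraries came from mice given 2.5 mg/kg of antibody to CD3, the complex that passes T cell receptor signals into the cell. The 6 IgG libraries came from mice given control IgG on the same schedule. All mice still had normal blood glucose and were 9 weeks old at the first dose, were dosed weekly for 4 weeks, and gave islets 2 or 3 days after the last dose, by collagenase P delivered through the bile duct. The labels do not say whether a library is 1 mouse or a pool, so the spread between libraries may be partly technical.

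Cells sense oxygen through prolyl hydroxylases that mark the alpha subunits of hypoxia-inducible factor (HIF) for removal by the VHL ubiquitin ligase. When oxygen is short the alpha subunits persist, pair with ARNT and bind short DNA elements with the core ACGTG or GCGTG near their target genes. The targets raise glucose uptake and glycolysis, hold pyruvate back from mitochondria, remove mitochondria, slow growth signalling and call in blood vessels. Beta cells are known for low lactate dehydrogenase activity, so that pyruvate is led into mitochondria, and islets lose their blood supply while they are being isolated.

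Library totals were 10994337 to 19284740 counts in the anti-CD3 group and 11891132 to 17628347 in the IgG group. Digestive enzyme genes of acinar cells took 70.9% to 74.6% of the counts in anti-CD3 libraries and 33.6% to 74.3% in IgG libraries, whereas endocrine markers took 1.04% to 2.21% in anti-CD3 libraries and 1.37% to 4.2% in IgG libraries. Endocrine markers were thus present in every library of the labelled islet tissue, beside far more exocrine RNA. IgG 6, with 33.6%, and IgG 5, with 57.0%, stood apart in acinar share, and IgG 6 also had 25828 genes with a count, more than any other library. Fold changes of single genes are therefore given without these libraries where they change sign or move by over 1.5 times. This was not done for the medians of the marker lists. In bulk RNA, fewer cells of a type and less RNA per cell cannot be told apart.

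The stretches of DNA just before the start of 6 of the genes are shown as examples that hold the letters of the HIF element. Ddit4 and Egln3, and Vegfa and Aldoa at another start than the first listed, also hold them there and are not shown. They are the 250 bases before the RefSeq start on GRCm38.p6, in the direction of transcription, and capitals mark each ACGTG or GCGTG on either strand, so that CACGT and CACGC are the same letters read from the other strand.
Bnip3, chr7:138909507-138909756, minus strand: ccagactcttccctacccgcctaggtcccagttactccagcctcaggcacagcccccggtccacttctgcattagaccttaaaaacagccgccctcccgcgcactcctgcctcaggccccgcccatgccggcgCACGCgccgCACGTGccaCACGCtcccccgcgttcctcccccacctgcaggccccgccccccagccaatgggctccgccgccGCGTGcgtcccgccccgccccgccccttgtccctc
Pgk1, chrX:106186850-106187099, plus strand: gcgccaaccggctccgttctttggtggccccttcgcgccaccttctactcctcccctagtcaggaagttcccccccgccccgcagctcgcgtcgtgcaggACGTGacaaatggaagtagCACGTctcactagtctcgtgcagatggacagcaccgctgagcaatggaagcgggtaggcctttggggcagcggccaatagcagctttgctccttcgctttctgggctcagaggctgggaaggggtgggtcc
Ldha, chr7:46845554-46845803, plus strand: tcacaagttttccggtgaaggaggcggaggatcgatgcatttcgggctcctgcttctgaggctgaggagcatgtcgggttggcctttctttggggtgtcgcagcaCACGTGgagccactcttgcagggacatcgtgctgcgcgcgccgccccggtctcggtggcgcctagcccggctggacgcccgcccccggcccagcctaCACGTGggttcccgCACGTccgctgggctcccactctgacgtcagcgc
Hk2, chr6:82774455-82774704, minus strand: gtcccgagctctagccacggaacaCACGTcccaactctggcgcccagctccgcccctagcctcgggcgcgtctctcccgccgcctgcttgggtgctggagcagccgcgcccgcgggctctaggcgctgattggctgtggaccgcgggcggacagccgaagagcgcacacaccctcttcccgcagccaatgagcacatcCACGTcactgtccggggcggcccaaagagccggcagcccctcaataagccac
Pdk1, chr2:71872974-71873223, plus strand: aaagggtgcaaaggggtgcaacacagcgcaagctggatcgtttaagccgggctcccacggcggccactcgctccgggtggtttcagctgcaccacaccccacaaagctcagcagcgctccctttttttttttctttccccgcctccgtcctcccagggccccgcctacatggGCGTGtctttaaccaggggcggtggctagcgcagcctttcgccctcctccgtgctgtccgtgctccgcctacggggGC
P4ha1, chr10:59323046-59323295, plus strand: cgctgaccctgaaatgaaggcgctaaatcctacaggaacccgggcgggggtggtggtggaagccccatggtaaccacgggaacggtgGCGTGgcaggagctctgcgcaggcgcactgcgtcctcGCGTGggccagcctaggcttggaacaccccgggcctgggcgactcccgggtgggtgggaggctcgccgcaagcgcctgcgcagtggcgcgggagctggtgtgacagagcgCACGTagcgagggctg
CACGTG stands in 2 places in Ldha and in 1 place in Bnip3. In Hk2 both matches lie on the opposite strand, and in Pgk1 1 match lies on each strand. In Pdk1 only GCGTG was found, and its second copy starts at the last 2 bases shown.

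Across the windows from 250 bases before to 50 bases after each RefSeq start, 15 windows matched the 10 genes. ACGTG was present in 9 of 10 genes, all but Pdk1, against 21.8% of the 27025 genes in the promoter table and 29.3% of the genes tested here that it lists. GCGTG was present in 6 of 10 genes, against 35.2% of all genes and 55.6% of the tested ones. CACGTG, which holds ACGTG on both strands, was present in 2 of 10 genes, against 8.09% of all genes and 11.8% of the tested ones. The windows of the 10 genes had a median GC content of 65.7%, against 52.7% over all windows, and Ldha, Vegfa, Pdk1 and Aldoa had more than 1 window in which a match could fall. Counting windows in place of genes, ACGTG was present in 10 of 15, against 19.6% of 32851. The matched windows of Aldoa overlap and hold the same site, which is counted in each of them. For Vegfa and Aldoa the first listed window, not shown here, held neither ACGTG nor GCGTG, and the ACGTG match came from another start. The matched windows of both lay inside the gene, for Vegfa at chr17:46025114-46025413. The Ldha stretch shown above also lies inside the span given below for that gene, chr7:46841475-46855627. A match of letters is a description and shows no binding.

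Levels are given below as normalized counts, the authors' counts divided by 1 size factor per library. Fold changes are the log2 of anti-CD3 over IgG from a model fitted to all 13115 genes that had enough counts, with its standard error (SE).

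Bnip3 and Ddit4, which act on mitochondria and on growth signalling, had the largest differences. Bnip3 (ENSMUSG00000078566, chr7:138890836-138909519, GRCm38, minus strand) encodes a receptor on mitochondria that leads them to removal by autophagy. Its normalized count was 375 at the lowest, 703 at the median and 973 at the highest in anti-CD3 libraries, against 174, 279 and 506 in IgG libraries. Anti-CD3 3 was the only treated library below the highest control, IgG 2, and the other 5 lay above every control. The means were 717 ± 217 in anti-CD3 and 289 ± 118 in IgG (SD, n = 6 each), and the fitted difference was 1.31 ± 0.27 (log2, SE).

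Ddit4 (ENSMUSG00000020108, chr10:59949669-59951834, minus strand), also called REDD1, restrains the growth kinase complex mTORC1 and is induced by low oxygen, by glucocorticoids and by ATF4. Anti-CD3 libraries 1 to 6 had normalized counts of 4884, 4072, 3053, 4665, 5199 and 2711, against 2423, 2609, 1241, 1601, 1135 and 1318 in IgG libraries 1 to 6. It was the only one of the 10 genes in which the groups did not overlap, and the gap was narrow, with 2711 in anti-CD3 6 and 2609 in IgG 2. The means were 4097 ± 1017 and 1721 ± 637 (SD, n = 6 each) in anti-CD3 and IgG, a fitted difference of 1.25 ± 0.24 (log2, SE). Per kilobase of exon Ddit4 had 2335 normalized counts in anti-CD3, the highest level of the 10 genes there, and 981 in IgG, where Aldoa was higher at 1166.

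The 4 glycolytic enzymes differed widely in how far the groups were apart. Hk2 (ENSMUSG00000000628, chr6:82725025-82774454, minus strand), the hexokinase that starts glycolysis in muscle and in many growing cells, had normalized counts of 639, 575, 106, 717, 418 and 750 in anti-CD3 libraries 1 to 6, against 201, 775, 131, 225, 391 and 1114 in IgG libraries 1 to 6. No anti-CD3 library exceeded IgG 2 or IgG 6, and the libraries numbered 3 were the lowest of their groups. The means were 534 ± 241 in anti-CD3 and 473 ± 390 in IgG (SD, n = 6 each), and the fitted difference of 0.17 ± 0.54 (log2, SE) was smaller than its error. It was 0.62 without IgG 6, 0.67 without IgG 5 and IgG 6, and -0.02 without IgG 3.

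Aldoa (ENSMUSG00000030695, chr7:126795234-126800751, minus strand), the aldolase that splits fructose bisphosphate, had normalized counts of 3303 at the lowest, 4603 at the median and 6804 at the highest in anti-CD3 libraries, against 2483, 3279 and 4278 in IgG libraries. Of the 6 anti-CD3 libraries 4 exceeded every IgG library, and anti-CD3 3 and anti-CD3 6 lay inside the IgG range. The fitted difference was 0.49 ± 0.20 (log2, SE).

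Pgk1 (ENSMUSG00000062070, chrX:106187100-106203699, plus strand), which makes the first ATP of glycolysis, had 1998, 3158 and 4763 normalized counts at the lowest, the median and the highest anti-CD3 library, against 1327, 1697 and 2372 in IgG libraries. The only anti-CD3 library inside the IgG range was anti-CD3 3. The fitted difference was 0.89 ± 0.21 (log2, SE).

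Ldha (ENSMUSG00000063229, chr7:46841475-46855627, plus strand), which turns pyruvate into lactate, had normalized counts of 5638, 2969, 1173, 4855, 3554 and 3698 in anti-CD3 libraries 1 to 6, against 1277, 2801, 1194, 1499, 1379 and 3623 in IgG libraries 1 to 6. Anti-CD3 3 was lower than every IgG library, 3 of the other 5 were above every IgG library, and IgG 2 and IgG 6 lay well above the other controls. The fitted difference was 0.90 ± 0.37 (log2, SE), and 1.10 without IgG 5 and IgG 6. Genes such as Ldha, Pgk1 and Aldoa have near-identical processed copies in the mouse genome, and the sources used here do not give how reads matching more than 1 place were counted, so reads may be shared with those copies.

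Pdk1 (ENSMUSG00000006494, chr2:71873224-71903858, plus strand) encodes a kinase that switches off pyruvate dehydrogenase and so keeps pyruvate out of the citric acid cycle. Its normalized count was 169 at the lowest, 214 at the median and 318 at the highest in anti-CD3 libraries, against 56.9, 116 and 203 in IgG libraries. Of the 6 anti-CD3 libraries 4 lay above IgG 2, the highest control, and all 6 lay above the other 5 controls. The fitted difference was 1.00 ± 0.27 (log2, SE), and 0.78 without IgG 5 and IgG 6. Per kilobase of exon Pdk1 was the lowest of the 10 genes, with 30.3 normalized counts in anti-CD3 and 15.3 in IgG.

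The 3 remaining genes act on blood vessels, on HIF itself and on collagen. Vegfa (ENSMUSG00000023951, chr17:46016993-46032369, minus strand), the growth factor by which beta cells maintain islet capillaries, had 1788, 2278 and 2742 normalized counts at the lowest, the median and the highest anti-CD3 library, against 1225, 1395 and 1795 in IgG libraries. It varied least within groups, with a coefficient of variation of 13.7% in anti-CD3 and 15.7% in IgG, and anti-CD3 3 fell just under IgG 2 while the other 5 lay above every control. The fitted difference was 0.65 ± 0.14 (log2, SE), the smallest SE among the 10 genes.

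Egln3 (ENSMUSG00000035105, chr12:54178981-54203860, minus strand) encodes an oxygen-sensing prolyl hydroxylase that is itself a HIF target and so feeds back on the pathway. Its normalized counts were 166, 65.7, 7.28, 138, 66.8 and 119 in anti-CD3 libraries 1 to 6, against 55.2, 108, 7.88, 32.4, 85.0 and 148 in IgG libraries 1 to 6. The ranges of the groups coincided almost entirely, and the libraries numbered 3 again stood far below the others. The highest library was 22.8 times the lowest in anti-CD3 and 18.8 times in IgG, the widest span of the 10 genes, and the fitted difference of 0.34 ± 0.63 (log2, SE) was smaller than its error. Without IgG 6 it was 0.66, without IgG 5 and IgG 6 it was 0.84, without anti-CD3 1 it was 0.11, and without IgG 3 it was 0.11.

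P4ha1 (ENSMUSG00000019916, chr10:59323296-59373304, plus strand), a catalytic subunit of the enzyme that hydroxylates proline in collagen, had 499, 690 and 814 normalized counts at the lowest, the median and the highest anti-CD3 library, against 276, 426 and 664 in IgG libraries. There were 4 anti-CD3 libraries above every IgG library, 1 of them (665 in anti-CD3 2) by a margin of about 1 count over IgG 6. The fitted difference was 0.55 ± 0.22 (log2, SE).

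**Figure D1:**
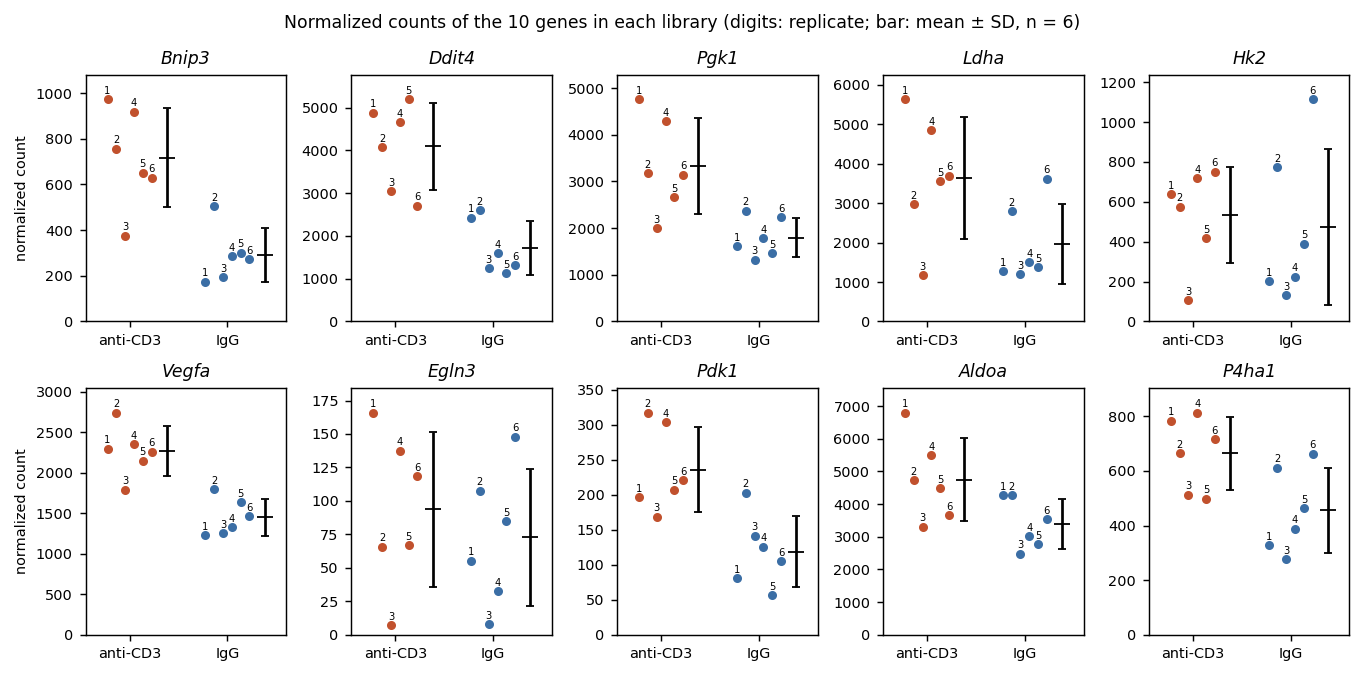
Normalized counts (vertical axes, linear from 0) of the 10 genes in each library, with anti-CD3 libraries left of IgG libraries, points numbered by library, and bars at the group mean ± SD (n = 6 each). Ddit4 is the gene in which the groups do not overlap, while for Hk2 and Egln3 the points of both groups cover the same range and the libraries numbered 3 lie lowest.

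All 10 genes passed the filter on low counts and all 10 had a positive fitted log2 fold change, against 44.8% of all genes tested, which the choice of the genes sets. Their median was 0.77, against -0.05 over all genes tested. None of the 10 passed an adjusted p of 0.05 in edgeR's quasi-likelihood test, under which 0.0762% of all genes passed, and 8 had an unadjusted p under 0.05 with a higher level in anti-CD3, against 9.68% of all genes. Of the 10, 5 passed an adjusted p of 0.05 with a higher level in the authors' deposited table (Bnip3, Ddit4, Pgk1, Vegfa and Pdk1), against 3.24% of the genes with an adjusted p there. One of the 10 had groups that did not overlap, against 1.14% of all genes. All these counts come from the contrast on which the genes were chosen, so they are no test of the genes and nothing is read from them. Only Bnip3 and Ddit4 were at least 2-fold higher on the fitted scale.

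The size of these differences depended on how libraries were brought to one scale. When libraries were scaled by total counts alone, so that the counts of acinar enzymes set the scale, the median of all genes moved to -0.70, 5 of the 10 genes were above 0 and 5 below it. Relative to that median the 10 genes ran from -0.08 for Hk2 to 1.36 for Ddit4. With the acinar score of each library as a covariate, Hk2 was at 1.02, Egln3 at 1.16, Ldha at 1.29, P4ha1 at 0.85 and Pgk1 at 0.99, all higher than without it. Under the same covariate Vegfa was at 0.70 and Aldoa at 0.50, while Bnip3 at 1.29, Ddit4 at 1.09 and Pdk1 at 0.85 were lower than without it.

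**Figure D2:**
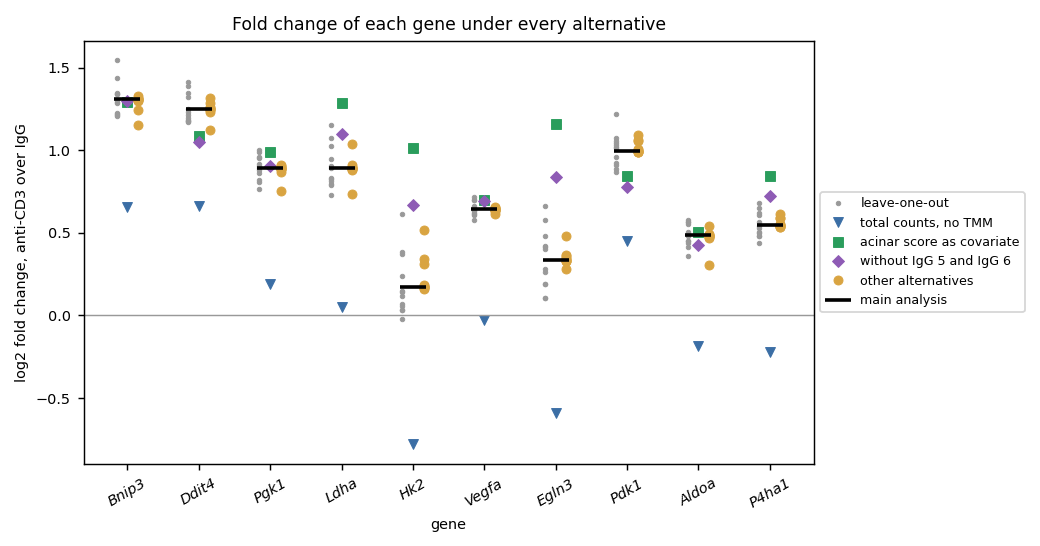
Log2 fold change (vertical axis, anti-CD3 over IgG) of each of the 10 genes (horizontal axis) in the fit described here, drawn as a bar, and under the 25 alternatives, drawn as points. Bnip3, Ddit4, Pgk1, Ldha and Pdk1 stay above 0 in all 25, and the values scaled by total counts alone are the lowest for every gene.

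Some libraries were low or high across most of the genes. Anti-CD3 3 was the lowest anti-CD3 library for 8 of the 10 genes, and IgG 3 the lowest IgG library for 6. At the upper end, anti-CD3 1 was the highest of its group for 5 genes, IgG 2 for 6 and IgG 6 for 4. Across the 10 genes the median deviation from the group mean was -0.56 in anti-CD3 3 and 0.49 in anti-CD3 1, and -0.44 in IgG 3 and 0.67 in IgG 2 (log2 CPM, counts per 1e+06).

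**Figure D3:**
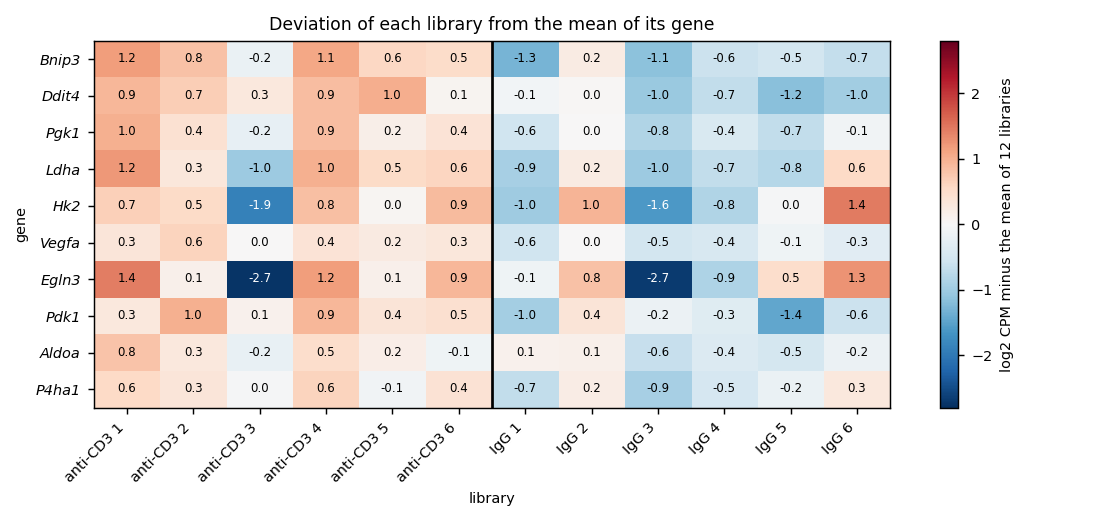
Deviation of each of the 10 genes (rows) from its mean over all 12 libraries, in log2 CPM, with the value written in each cell, for each library (columns, anti-CD3 left of IgG). Anti-CD3 3 is the lowest anti-CD3 column in 8 rows and IgG 3 the lowest IgG column in 6, and Hk2 and Egln3 have the largest deviations.

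Because the genes were chosen on the difference between groups, their variation inside the groups is a separate measurement. After each gene was centred on its group mean, the 45 pairs of genes had a median Pearson r of 0.63 over the 12 libraries, 27 pairs were above 0.5 and none was below 0. Of the 45 pairs, 19 had a Benjamini-Hochberg adjusted p under 0.05 for r (permutation within groups, 100000 draws), and 11 had one for Spearman's rho. The libraries share their scaling and their acinar share, and the genes are not independent of one another. Without anti-CD3 3 and IgG 3 the median r over pairs was 0.44, and without IgG 6 it was 0.67.

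The closest pairs joined the hexokinase, the oxygen sensor and the lactate enzyme. Hk2 and Egln3 had r = 0.92 and rho = 0.86 (permutation p = 7e-05 and 0.00214, adjusted over 45 pairs 0.0027 and 0.0143), and r = 0.83 without anti-CD3 3 and IgG 3. In each pair, the 2 libraries left out were those farthest from the median of 1 of its genes. Extreme libraries of the other gene may therefore remain. Ldha and Hk2 had r = 0.92 and rho = 0.83 (permutation p = 0.00084 and 0.00375, adjusted 0.00638 and 0.0188), and r = 0.75 without anti-CD3 3 and IgG 6. Pgk1 and Ldha had r = 0.91 and rho = 0.86 (permutation p = 0.0005 and 0.00217, adjusted 0.00563 and 0.0143), and r = 0.85 without anti-CD3 3 and anti-CD3 1. P4ha1 and Hk2 had r = 0.88 and rho = 0.89 (permutation p = 0.00029 and 0.00113, adjusted 0.00435 and 0.0137), and r = 0.93 without anti-CD3 3 and IgG 3. Libraries high in 1 of these genes were thus mostly high in the others.

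Ddit4 and Pdk1 were the loosest of the 10. Ddit4 had r = 0.17 and rho = -0.06 with Hk2 (permutation p = 0.606 and 0.896, adjusted 0.634 and 0.918), and r = 0.13 without IgG 2 and anti-CD3 6. With Aldoa, Ddit4 had r = 0.81 and rho = 0.74 (permutation p = 0.0029 and 0.0141, adjusted 0.01 and 0.0527), and r = 0.75 without the same libraries. Egln3 and Pdk1 had r = 0.04 and rho = 0.06 (permutation p = 0.897 for both, adjusted 0.897 and 0.918), and r = -0.01 without anti-CD3 3 and IgG 3. Bnip3 and Vegfa had r = 0.83 and rho = 0.83 (permutation p = 0.00232 and 0.00359, adjusted 0.0087 and 0.0188), which was r = 0.59 without IgG 2 and anti-CD3 3.

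**Figure D4:**
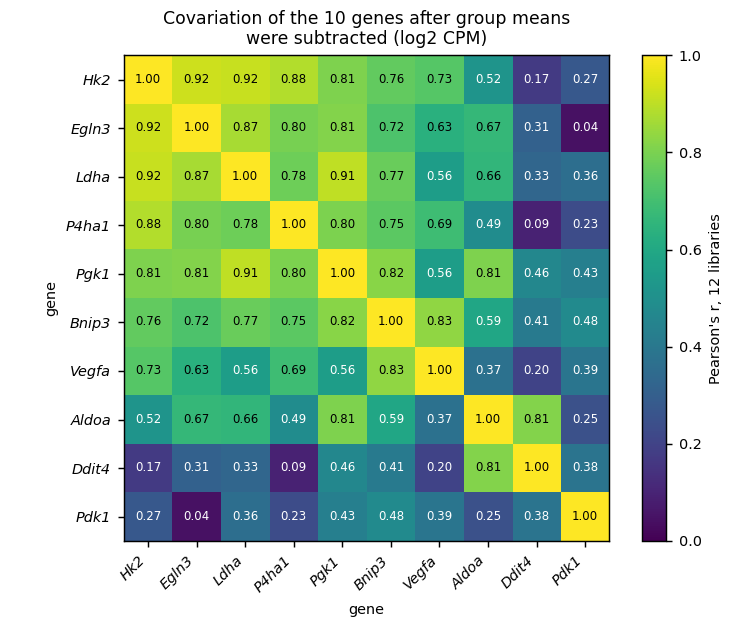
Pearson r between each pair of the 10 genes over the 12 libraries after centring on the group mean, on a colour scale, with r written in each cell. Hk2, Egln3, Ldha, P4ha1 and Pgk1 form the brightest block, and the rows of Ddit4 and Pdk1 are the darkest.

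Among 6269 other genes of sufficient level, the 5 whose centred levels followed the 10 genes most closely were Egln1, Eno1, Slc2a1, Pfkfb3 and Hk1, by their mean r with the 10 genes over 12 libraries. Egln1, the main oxygen-sensing prolyl hydroxylase, had a mean r of 0.76. Eno1, an enolase, and Slc2a1, the glucose transporter GLUT1, also had 0.76. Pfkfb3, which makes an activator of phosphofructokinase, had 0.74, and Hk1, the hexokinase of most tissues, had 0.74. The median over the 6269 genes was -0.10, and 4.23% of them were above 0.5. Of 44 other glycolysis and hypoxia-induced genes that were eligible, 25 were among the 100 closest, a place held by 1.6% of eligible genes. That number was 24 without IgG 6 and 23 without anti-CD3 3 and IgG 3, when the 5 closest became Pgam1, Eno1, Tpi1, Jmjd6 and Hk1. Of the 25, glycolysis gave 11 of its 16 eligible genes and the hypoxia-induced list 15 of its 29, with Slc2a1 counted in both. The median of the mean r was 0.67 over the eligible glycolysis genes and 0.59 over the eligible hypoxia-induced genes. Endothelial markers, given below, had 0.60, so such likeness was not particular to these lists. None of the 13 eligible mTORC1 and ATF4 genes and none of the 8 eligible genes of pyruvate entry was among the 100.

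Markers of other cells moved with the same libraries. The mean centred r with the 10 genes was 0.60 for 10 endothelial markers, 0.55 for 11 stromal, 0.55 for 14 T cell, 0.52 for 8 B cell and 0.41 for 9 macrophage markers, against -0.19 for 30 acinar, -0.25 for 10 ductal and -0.28 for 16 endocrine markers. It was 0.33 for the 3 tested erythroid markers and 0.41 for the 1 tested neutrophil marker. Summed endothelial markers ran from 85.5 to 205 CPM in anti-CD3 libraries and from 83.0 to 273 in IgG libraries, with anti-CD3 3 and IgG 3 at the low ends. The T cell markers summed to 8.0 to 75.9 CPM in anti-CD3 libraries and 11.1 to 240 in IgG libraries, again lowest in both libraries numbered 3 and highest in anti-CD3 1 and IgG 6. B cell markers summed to 2.24 to 34.9 CPM in anti-CD3 libraries and 3.36 to 141 in IgG libraries, lowest and highest in the same libraries. No endothelial, stromal, T cell, B cell or macrophage marker was at 0 in all libraries. Between the groups the median log2 fold change was -0.05 for the endothelial, -1.21 for the T cell, -1.34 for the B cell, -0.96 for the macrophage and -1.05 for the stromal markers. Acinar markers had a median of 0.68, with 29 of 30 positive, also not computed without IgG 5 and IgG 6. They summed to 359279 CPM in IgG 5 and 143600 in IgG 6, against 605555 to 876064 in the other IgG libraries. Every anti-CD3 library had at least 775182. The part of any of these in the levels of the 10 genes was not tested.

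The other enzymes of glycolysis were measured in the same fit. Of 25 genes, all tested, none passed an adjusted p of 0.05 in edgeR. At an unadjusted p under 0.05, 6 were higher and none lower in anti-CD3, against 9.68% and 8.68% of all genes. DESeq2 called 2 higher and limma-voom 1, against 2.64% and 0.892% of all genes, and neither called any lower, against 1.12% and 0.137% of all genes. In the authors' deposited table there were 3 calls higher and none lower, against 3.24% and 1.31% of its genes. The median log2 fold change was 0.18, with 18 of 25 positive, against a median of -0.05 over all genes. Tpi1, which interconverts the triose phosphates, averaged 2864 ± 856 normalized counts in anti-CD3 and 1480 ± 489 in IgG (SD, n = 6 each), a difference of 0.96 ± 0.24 (log2, SE; edgeR adjusted p = 0.083). Eno1 averaged 2587 ± 1033 in anti-CD3 and 1205 ± 543 in IgG, a difference of 1.10 ± 0.33 (edgeR adjusted p = 0.128). Slc2a1 averaged 2300 ± 714 and 1224 ± 528 in anti-CD3 and IgG, a difference of 0.91 ± 0.29 (edgeR adjusted p = 0.141). These are the genes called in the authors' deposited table, and Tpi1 was the one called by limma-voom. Slc2a2, the glucose transporter typical of beta cells, was at -0.37 ± 0.32 (log2, SE; edgeR adjusted p = 0.536). Pkm, the last enzyme before pyruvate, had 0.14 ± 0.22 and Hk1 -0.07 ± 0.39, which were 0.37 and 0.14 without IgG 5 and IgG 6.

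Of 46 other genes known to be induced by hypoxia, 44 were tested and none passed in edgeR, with 17 higher and 1 lower at an unadjusted p under 0.05, against 9.68% and 8.68% of all genes. DESeq2 called 9 higher and limma-voom 4, against 2.64% and 0.892% of all genes, there were 10 such calls in the authors' deposited table, against 3.24% of its genes, and none of these called any lower. The median log2 fold change was 0.38, with 34 of 44 positive and 10 negative. Hmox1, the 1 lower gene, was at -0.52 ± 0.23 (log2, SE, edgeR adjusted p = 0.244). Angptl4, the lowest of the list, was at -1.22 ± 0.71 (edgeR adjusted p = 0.373), and at -0.48 without IgG 5 and IgG 6. Both are outside the named panel and were named after their values were seen. Car9, a carbonic anhydrase, averaged 70.9 ± 35.6 normalized counts in anti-CD3 and 22.3 ± 18.7 in IgG (SD, n = 6 each). Its difference was 1.68 ± 0.56 (log2, SE, edgeR adjusted p = 0.160). Higd1a, a mitochondrial protein, averaged 373 ± 119 in anti-CD3 and 183 ± 46.7 in IgG, a difference of 1.03 ± 0.22 (edgeR adjusted p = 0.0659). Kdm3a, a histone demethylase, averaged 633 ± 195 and 324 ± 115 in anti-CD3 and IgG, a difference of 0.97 ± 0.25 (edgeR adjusted p = 0.0912). Bnip3l, the closest relative of Bnip3, averaged 425 ± 83.3 in anti-CD3 and 259 ± 66.2 in IgG, a difference of 0.72 ± 0.18 (edgeR adjusted p = 0.0886). The limma-voom calls were Bnip3l, Fam162a, Higd1a and Jmjd6, the second and the last of which are outside the named panel and are given because the count is small.

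**Figure D5:**
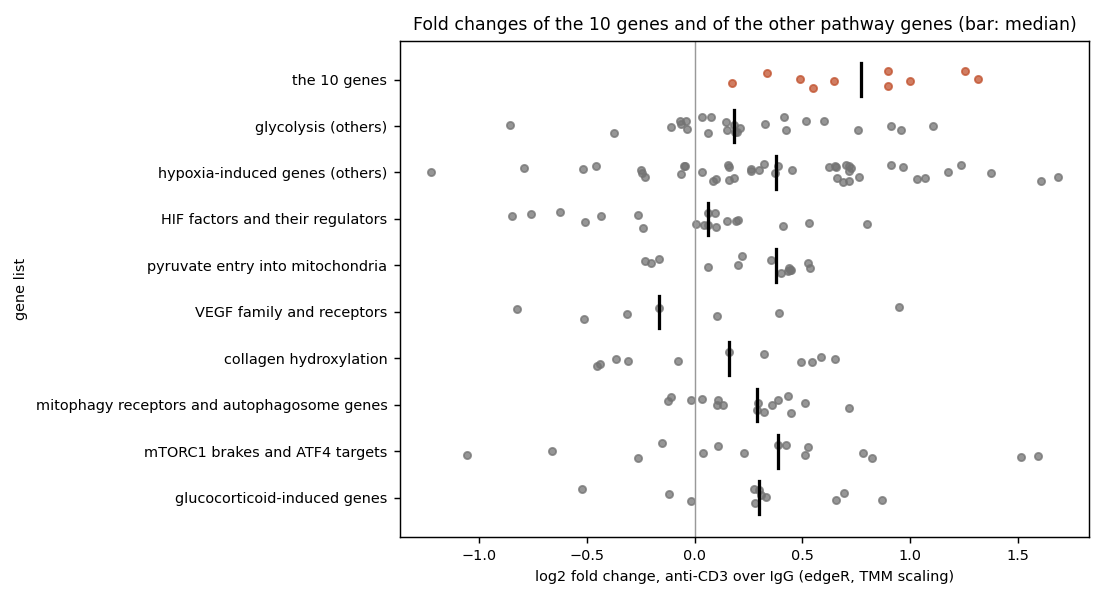
Log2 fold change (anti-CD3 over IgG) of each tested gene in the 9 lists of pathway genes and in the 10 chosen genes, 1 point per gene, with the median of each list. The hypoxia-induced list holds both the highest single value, 1.68 for Car9, and the lowest, -1.22 for Angptl4. The medians of the lists run from -0.17 to 0.38.

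The RNAs of the HIF alpha subunits Hif1a and Epas1 had lower means in anti-CD3, without passing the test, and the difference was smaller without the IgG libraries that stood apart. Hif3a, the other alpha subunit, had 22 counts over all libraries and was not tested. Of 20 HIF factors and regulators, 19 were tested, none passed in edgeR, and 3 were higher and 4 lower at an unadjusted p under 0.05, against 9.68% and 8.68% of all genes. Hif1a, the oxygen-regulated subunit of most cells, averaged 668 ± 205 normalized counts in anti-CD3 and 1031 ± 690 in IgG (SD, n = 6 each), a difference of -0.62 ± 0.35 (log2, SE; edgeR adjusted p = 0.354). Epas1, the alpha subunit rich in endothelium, averaged 99.2 ± 33.2 and 179 ± 92.9 in anti-CD3 and IgG, a difference of -0.85 ± 0.30 (edgeR adjusted p = 0.175). Without IgG 6 Hif1a was at -0.20 and Epas1 at -0.53, and without IgG 5 and IgG 6 they were at -0.04 and -0.51. Arnt was at 0.01 ± 0.13, Vhl at 0.10 ± 0.15 and Egln2 at 0.09 ± 0.16, the last 2 at 0.28 and -0.01 without IgG 5 and IgG 6, while Egln1, itself a HIF target, was at 0.80 ± 0.31 (edgeR adjusted p = 0.200). HIF alpha subunits are regulated mainly as proteins, which these data do not measure. The single call of the list in DESeq2 and in the authors' deposited table was the chaperone Hsp90ab1, lower in anti-CD3, and limma-voom called none.

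At an unadjusted p under 0.05, the shares of all genes for each of the remaining lists are likewise 9.68% higher and 8.68% lower. For calls higher and lower, the shares of all genes were 2.64% and 1.12% in DESeq2 and 0.892% and 0.137% in limma-voom. In the authors' deposited table they were 3.24% and 1.31% of its genes. Around Pdk1, 14 other genes of pyruvate entry into mitochondria had a median log2 fold change of 0.38, with 11 positive, none called by edgeR or limma-voom and 5 higher at an unadjusted p under 0.05. Pdhb, a subunit of pyruvate dehydrogenase, was the single call in DESeq2 and in the authors' deposited table, at 0.53 ± 0.14. The other pyruvate dehydrogenase kinases were at 0.44 ± 0.36 for Pdk2, -0.23 ± 0.29 for Pdk3 and 0.52 ± 0.25 for Pdk4, and without IgG 5 and IgG 6 Pdk2 was at 0.04 and Pdk3 at 0.03. Around Vegfa, 7 of 9 family members and receptors were tested with a median of -0.17, and none was called by any of these tools. Of the 7, 3 were positive and 4 negative, and 1 was higher and 2 lower at an unadjusted p under 0.05. Pgf, a related ligand, was at 0.95 ± 0.46, and the receptor Kdr at -0.51 ± 0.19 (log2, SE; edgeR adjusted p = 0.284 and 0.190). Around P4ha1, 11 of 12 genes of collagen hydroxylation were tested with a median of 0.16, 4 were higher at an unadjusted p under 0.05 and none was called, with P4hb, its partner subunit, at 0.59 ± 0.25, or 0.31 without IgG 5 and IgG 6, and P4ha2 at 0.65 ± 0.26.

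Around Bnip3, the 16 mitophagy and autophagosome genes had a median of 0.29 with 13 positive and 6 higher at an unadjusted p under 0.05. Bnip3l was the single call in DESeq2, limma-voom and the authors' deposited table, which called 2.64%, 0.892% and 3.24% of their genes higher. Around Ddit4, 15 of 16 mTORC1 and ATF4 genes were tested with a median of 0.38, none called by edgeR, and 5 higher and 1 lower at an unadjusted p under 0.05. Atf3 and Ddit3, both transcription factors of the stress response, were called higher by DESeq2, limma-voom and the authors' deposited table. Atf3 averaged 4065 ± 1316 normalized counts in anti-CD3 and 1346 ± 618 in IgG (SD, n = 6 each), with groups that did not overlap and a difference of 1.59 ± 0.32 (log2, SE; edgeR adjusted p = 0.0659). Ddit3, also called CHOP, averaged 986 ± 352 and 345 ± 141 in anti-CD3 and IgG, a difference of 1.51 ± 0.27 (edgeR adjusted p = 0.0646). Sesn2, another mTORC1 brake, was at 0.11 ± 0.29, and at -0.12 without IgG 5 and IgG 6. Of the 11 glucocorticoid-induced genes none was called by edgeR, DESeq2, limma-voom or the authors' deposited table, 2 were higher and 1 lower at an unadjusted p under 0.05, and their median was 0.30. The higher ones were the metallothionein genes Mt2, at 0.87 ± 0.29, and Mt1, at 0.69 ± 0.32, named after their values were seen, which were at 0.57 and 0.38 without IgG 5 and IgG 6. The lower one was Fkbp5, a widely used reporter of glucocorticoid action, at -0.52 ± 0.16, and Tsc22d3 was at 0.31 ± 0.22 (log2, SE; edgeR adjusted p = 0.138 and 0.467).

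Ratios between relatives compare genes inside each library and do not depend on how libraries are scaled. The gene on top of each ratio is one of the 10, chosen by its higher level in anti-CD3, so the ratios of the groups are a description from which nothing is read. The log2 ratio of Bnip3 to Bnip3l counts was 0.71 ± 0.23 in anti-CD3 and 0.11 ± 0.48 in IgG (SD, n = 6 each), with overlapping ranges. For Ldha to Ldhb, the lactate dehydrogenase subunit of heart, it was 6.86 ± 0.92 and 6.09 ± 0.66, and for Vegfa to Vegfb 4.97 ± 0.31 and 4.47 ± 0.59, in anti-CD3 and IgG. Egln3 to Egln1 stood at -2.68 ± 1.09 in anti-CD3 and -2.27 ± 1.13 in IgG.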

How the data were processed

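Polyadenylated RNA of islets was fragmented, copied with random primers and sequenced, per the labels' protocols. Trimmomatic 0.36, STAR 2.5.2b, featureCounts of Subread 1.5.2, DESeq2 and GRCm38 (mm10) are named in the submitters' processing notes, while the sources used here do not give the annotation, the strand setting or the treatment of reads with more than 1 match. Whole-number counts of 49315 genes were deposited. The authors' deposited comparison table gives, for 13703 genes, a normalized signal (each library's counts over its own size factor), a log2 fold change with anti-CD3 on top and a p-value, with 2935 adjusted values left as NA. All columns were matched to libraries by group and number in their names.

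Counts were fitted in R 4.3.3 with edgeR 4.0.16 (filterByExpr, minimum count 10 and total 15, TMM, robust quasi-likelihood F test, two-sided, Benjamini-Hochberg at 0.05) for 13115 genes, after tests on simulated data. TMM factors ran from 0.734 to 2.34. The SE is the absolute log2 fold change over the square root of F. Likeness used log2 CPM (prior count 2) centred within groups, for named genes with a mean of at least 3. DESeq2 1.42.0, limma 3.58.1 voom with quality weights, other scalings, filters and offsets, a covariate and libraries left out were alternatives. Leaving libraries out of the likeness was added after seeing the data.

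The 10 genes, the lists and the lists of markers were chosen with earlier results of these data known. The named genes were the 10, a panel of pathway genes, and the 5 closest by likeness. The p-values of the fits judge the difference between groups against the spread between libraries, which may be partly technical. The replicate numbers are shared between groups, but the labels do not say that they pair libraries. Promoters came from RefSeq on GRCm38.p6, and gene symbols from GENCODE M21 for 48970 genes and from the deposited table for 17.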

Additional observations from a re-analysis of the deposited data

How the results depend on the processing

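The fitted test called 10 genes of 13115. It called 6 with upper-quartile factors, 0 with total counts alone, 167 with no filter on low counts, 5 without robust estimation, 0 with the acinar score as covariate, 1 without IgG 5 and IgG 6, and 4 with a length offset. limma-voom called 135 and DESeq2 454. Leaving out 1 library gave 0 to 203, with 203 without anti-CD3 2 and 0 without anti-CD3 1, anti-CD3 5, anti-CD3 6 or IgG 5. It was 1 without anti-CD3 3, 6 without anti-CD3 4, and 2, 4, 3 and 5 without IgG 1, IgG 3, IgG 4 and IgG 6. With RLE factors, with TMM without acinar genes and with the filter at 1 CPM the count was within 1.5 times of 10.

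The number of glycolysis genes called was 0, and 1 with no filter, 1 with limma-voom and 2 with DESeq2. For hypoxia-induced genes it was 0, and 3, 4 and 9 under the same 3, and 0 to 1 when 1 library was left out, with 1 without anti-CD3 2. The median log2 fold change of the 10 genes was 0.77, and 0.69 to 0.86 when 1 library was left out. With total counts alone it was 0.012, where Vegfa was at -0.025, Aldoa at -0.18 and P4ha1 at -0.22, Hk2 at -0.78 and Egln3 at -0.59, and the median of all genes was at -0.70.

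Replicate numbers 1 to 6 are shared by the groups. Deviations of same-numbered libraries correlated at -0.29 to 0.55, highest for number 3 (0.55) and number 6 (0.54). Anti-CD3 3 was closest to IgG 3 and anti-CD3 6 to IgG 6, and each other anti-CD3 library was also closest to IgG 3 or IgG 6. Not every number gave a correlation above 0.1, so the numbers were not taken as pairs. With the replicate number as a block 0 genes were called and the median of the 10 genes was 0.76. In the likeness, Egln1 was at 0.63 without anti-CD3 3 and IgG 3.

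Levels of Egln3, with raw counts as low as 6 in a library, carry the largest counting error of the 10 genes.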
